A study of Homo sapiens with 24 samples.

Results

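The Hippo pathway was described here by 10 genes: NF2, LATS1, LATS2, YAP1, WWTR1, TEAD1, CCN1, CCN2, ANKRD1 and AMOTL2. They were taken by name from the 57500 gene identifiers in each count table, and all 10 were found. H2052, a human line of pleural mesothelioma cells (a tumour that arises from the lung's lining), was transfected with 20 nM of a mimic of the microRNA miR-497-5p or of a scrambled control mimic. Both mimics carried biotin at the 3′ end. The libraries fell into 8 groups of 3. They were the pull-down with miR-497-5p and with control at 72 h, the same at 12 h, the RNA-seq with miR-497-5p and with control at 72 h, and the same at 12 h. RNA-seq here is the input RNA of the cells, and the pull-down is the cytoplasmic RNA recovered on streptavidin beads through the biotin. The treated libraries are labelled miR-497-5p-RE, and the labels do not explain RE. There was 1 cell line and no untransfected group, and the sources used here do not give its NF2 and LATS2 genotype. Nothing in the labels says whether replicates came from different cultures, so a p-value here reflects the spread between these libraries alone, which may be technical.

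The Hippo pathway is a kinase cascade that limits tissue growth. The membrane-linked protein NF2 (merlin) helps activate the kinases LATS1 and LATS2, which phosphorylate the co-activators YAP1 and TAZ (the product of WWTR1) and so keep them in the cytoplasm. Unphosphorylated YAP1 and TAZ enter the nucleus, bind TEAD transcription factors and raise transcription of genes such as CCN1, CCN2, ANKRD1 and AMOTL2. Loss of NF2, and in some tumours of LATS2, is a recurrent lesion of mesothelioma.

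miR-497-5p belongs to the miR-15/16 family, whose members share bases 2 to 8, the seed through which a microRNA pairs with its targets. The mature sequences below, from RefSeq on GRCh38.p14, show that shared seed in capitals. The labels do not give the bases of the mimic itself, and the annotated miR-497-5p lies at chr17:7017979-7017999 on the minus strand.
miR-497-5p: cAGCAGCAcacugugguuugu
miR-195-5p: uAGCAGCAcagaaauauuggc
miR-16-5p: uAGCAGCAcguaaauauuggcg
miR-424-5p: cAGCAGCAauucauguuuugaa
The seed pairs with TGCTGCT (a 7mer-m8 site), TGCTGCTA (8mer), GCTGCTA (7mer-A1) and GCTGCT (6mer). These letters were searched on the transcript strand of the longest 3′ UTR that GENCODE 44 annotates for each gene, and a shorter match inside a longer match was not counted again. A 7mer-m8 or 8mer match was present in 5 of the 10 genes (50%) and in 22.9% of the 19246 protein-coding genes with a 3′ UTR, where the median UTR was 1228 bases against 2921 bases for the 10. The matches that the results below refer to are shown 5′ to 3′ on GRCh38, with the match in capitals.
NF2, 7mer-m8, chr22:29695699-29695728, plus strand: ggctccacaggTGCTGCTtctcactggccc
NF2, 7mer-m8, chr22:29696359-29696388, plus strand: tccatggctgaTGCTGCTgtggccagccag
LATS1, 7mer-m8, chr6:149660978-149661007, minus strand: ggtatttttgaTGCTGCTtccaattttaaa
LATS1, 7mer-m8, chr6:149658570-149658599, minus strand: tttttagacatTGCTGCTgctgttacccaa
LATS2, 7mer-m8, chr13:20974526-20974555, minus strand: ttgacaaatcaTGCTGCTgttattttctac
YAP1, 7mer-m8, chr11:102230091-102230120, plus strand: tccttgtccatTGCTGCTgttaatgtattg
YAP1, 7mer-A1, chr11:102231786-102231815, plus strand: tcctggcaaaaGCTGCTAtgaaaagcctca
TEAD1, 7mer-m8, chr11:12941191-12941220, plus strand: gcctcaccggaTGCTGCTtcccacactgaa
TEAD1, 8mer, chr11:12942373-12942402, plus strand: tggtccccgccTGCTGCTAgtctgtctgcc
The 7mer-m8 and 8mer matches lay in NF2, LATS1, LATS2, YAP1 and TEAD1 and in none of the 4 output genes. TEAD1 had 1 8mer and 2 7mer-m8 matches in a UTR of 7515 bases (the 8mer and 1 7mer-m8 are shown), and 60.8% of UTRs within 20% of that length hold at least 1 such match. LATS1 also had 3 matches, all 7mer-m8, of which the last 2 overlap (the first of them is shown), and NF2 had 2. LATS2 and YAP1 had 1 7mer-m8 match each, with a further 7mer-A1 match in YAP1. NF2, LATS2 and TEAD1 had 1 further 6mer match each, which is not shown. WWTR1, CCN1, CCN2 and ANKRD1 had none of the 4 kinds of match, and AMOTL2 had 2 6mer matches only. A match is a string of letters and no evidence that the microRNA bound there.

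**Figure D1:**
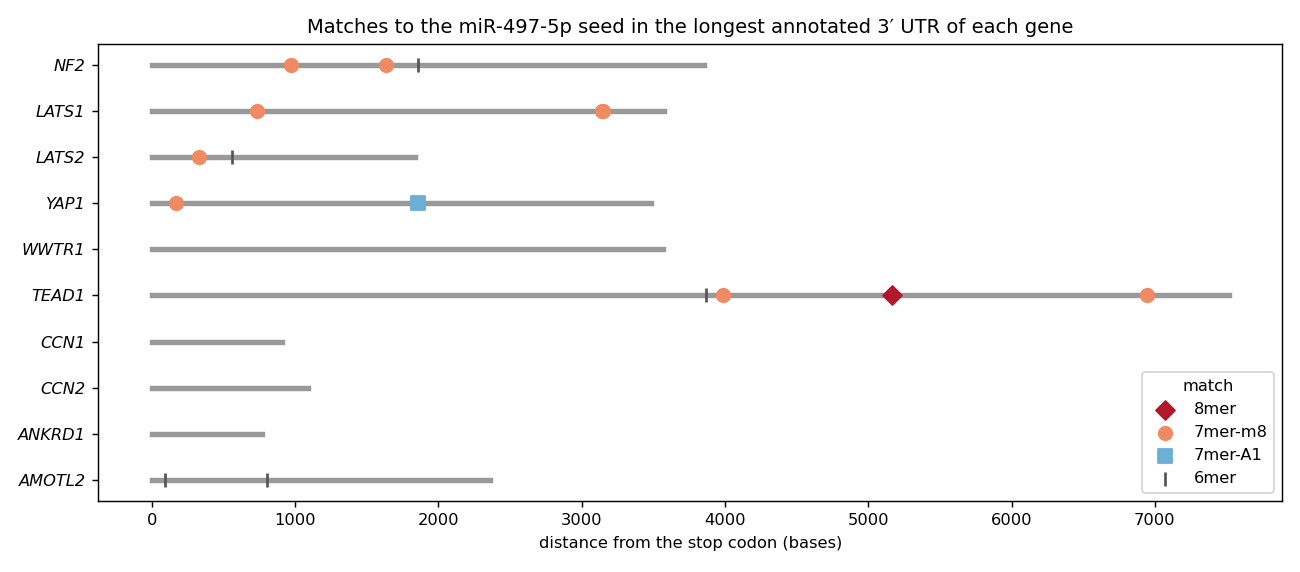
Position of each seed match (x axis, bases from the stop codon) in the longest annotated 3′ UTR (grey line) of the 10 genes, by kind of match. NF2, LATS1, LATS2, YAP1 and TEAD1 carry 7mer-m8 or 8mer matches (the last 2 of LATS1 overlap and are drawn on each other), while WWTR1, CCN1, CCN2 and ANKRD1 carry none.

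TEAD factors bind DNA at the motif GGAATG, and CATTCC is the same motif on the other strand. The promoters of CCN2 and ANKRD1, output genes that each hold more than 1 match, are shown (RefSeq, GRCh38.p14, the 250 bases before the gene start), with the motif in capitals.
CCN2, chr6:131951373-131951622, minus strand: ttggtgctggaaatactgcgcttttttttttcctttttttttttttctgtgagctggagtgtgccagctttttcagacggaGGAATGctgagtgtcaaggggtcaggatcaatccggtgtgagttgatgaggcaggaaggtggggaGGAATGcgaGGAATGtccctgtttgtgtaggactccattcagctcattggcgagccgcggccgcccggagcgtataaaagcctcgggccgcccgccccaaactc
ANKRD1, chr10:90921088-90921337, minus strand: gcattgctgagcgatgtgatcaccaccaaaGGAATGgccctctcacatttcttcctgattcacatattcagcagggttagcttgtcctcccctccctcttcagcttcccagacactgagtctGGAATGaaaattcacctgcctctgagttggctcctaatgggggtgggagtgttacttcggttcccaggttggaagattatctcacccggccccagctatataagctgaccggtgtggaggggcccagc
CCN2 held 3 matches and ANKRD1 2, all in the GGAATG orientation. YAP1 held 1, as did 1 of the 2 annotated promoters of AMOTL2, and none was found in the promoters of NF2, LATS1, LATS2 and WWTR1. The promoters of CCN1 and TEAD1 were not used here. At least 1 match on either strand stood in 11.9% of 35116 promoters of the same length, and 3 or more in 0.0797%.

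Total counts were 8262425 to 30650982 in the 12 pull-down libraries and 21561816 to 30602007 in the 12 RNA-seq libraries. The biological coefficient of variation was 0.349 in the pull-down and 0.0601 in RNA-seq, so the pull-down could detect only larger differences. Of 14 mesothelial markers 11 passed the filter on low counts in RNA-seq. Mesothelin (MSLN) was at 42.7 to 80.4 CPM, while calretinin (CALB2) reached at most 2.16 CPM and UPK3B, HP and ITLN1 at most 0.603, 0.113 and 0.0383 CPM. The 12 h libraries also held RNA of squamous epithelium, in differing amounts, and some held RNA of blood. In each library at 12 h 29 to 34 of 34 squamous markers had a count, against 9 to 17 at 72 h. The sum of 34 squamous markers at 12 h was 1201, 137 and 272 CPM in the RNA-seq with miR-497-5p and 940, 878 and 350 CPM in the control RNA-seq. It was 1118, 831 and 240 CPM in the pull-down with miR-497-5p and 166, 301 and 891 CPM in the control pull-down at 12 h. At 72 h the sum was 75.5 to 96.7 CPM in the pull-down and 169 to 201 CPM in RNA-seq. In each RNA-seq library at 72 h 13 to 17 of the 34 squamous markers had a count, while KRT14, KRT6A, KRT1 and SPRR3 were at 0 in all of them. The blood and leukocyte sum passed 100 CPM in 3 RNA-seq libraries at 12 h only. Fits without the 7 libraries of 12 h past the marker limits, 500 CPM of squamous or 100 CPM of blood and leukocyte markers, are given as effect sizes. They keep replicate 3 alone of both RNA-seq arms and of the pull-down with miR-497-5p, and replicates 1 and 2 of the control pull-down. The libraries kept still held 166 to 350 CPM of squamous markers, so these fits do not remove that RNA.

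Levels between genes were compared as RPKM, reads per kilobase of exon scaled for depth. CCN1, which encodes the secreted matrix protein CYR61, had the highest RNA-seq level of the 10 in all 4 groups, 130 ± 1.39 RPKM with miR-497-5p and 121 ± 2.94 RPKM with control at 72 h (SD, n = 3). YAP1 was next, at 23.2 ± 1.07 RPKM with miR-497-5p and 20.9 ± 0.826 RPKM with control at 72 h. WWTR1, the paralogue of YAP1, stood far below it at 2.52 ± 0.242 RPKM with miR-497-5p and 0.891 ± 0.0758 RPKM with control. With miR-497-5p at 72 h TEAD1 (13.7 ± 0.126 RPKM) stood above AMOTL2 (9.80 ± 0.227 RPKM), while with control TEAD1 (10.9 ± 0.370 RPKM) and AMOTL2 (11.1 ± 0.493 RPKM) did not differ beyond their spread. At 72 h ANKRD1 ranked 4 of 10 with miR-497-5p at 11.6 ± 0.709 RPKM and 5 of 10 with control at 3.78 ± 0.142 RPKM. NF2, at 2.80 ± 0.241 RPKM with miR-497-5p, did not differ beyond its spread from WWTR1 in the same group, and LATS1 stood at 1.42 ± 0.0725 RPKM. LATS2 was the lowest in each of the 4 RNA-seq groups, at 0.101 RPKM or less. Exons of 5 of the 10 genes overlap those of another annotated gene, from 3.12% of the exonic bases of AMOTL2 to 9.97% of those of YAP1, and whether counting used strand is not stated. The overlapping genes had 41 reads at most in any library (WWTR1-AS1).

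At 72 h miR-497-5p went with higher RNA-seq levels of both co-activators, of TEAD1 and of 3 of the 4 output genes. ANKRD1 and WWTR1 changed most, to about 3.07 and 2.83 times control, and AMOTL2 alone fell. The kinases and NF2 did not pass the test. Genes were called at an adjusted p under 0.05 (edgeR quasi-likelihood test, Benjamini-Hochberg over all genes). By that rule 7 of the 10 genes were called at 72 h, 6 higher and 1 lower, where 57.5% of all 17335 genes tested were called (27.9% higher, 29.6% lower). The arms did not overlap for 8 of the 10, against 63.7% of all genes. The count called is thus close to that of the whole transcriptome, and the median change of the 10 was 0.15 against 0.00 for all genes (log2). At 12 h 3 of the 10 were called, 2 higher and 1 lower, where 12.5% of all genes were (7.25% higher, 5.30% lower), and the arms of 5 did not overlap, against 25.7% of all genes. CPM is a share of each library, so fewer cells of a type and less RNA per cell cannot be told apart.

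Among the upstream components, NF2 at 72 h had 18.2, 20.5 and 21.5 CPM with miR-497-5p, against 18.2, 18.1 and 17.9 CPM with control. The arms met at their edge, and the change was 0.15 ± 0.08 (log2 fold change ± SE, adjusted p 0.111). At 12 h NF2 had 13.8, 12.0 and 12.5 CPM with miR-497-5p and 12.7, 15.3 and 13.5 CPM with control, which overlap (-0.12 ± 0.08, adjusted p 0.415). NF2 carries 2 of the 7mer-m8 matches shown above.

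LATS1, the kinase with 3 matches, had 12.7, 11.6 and 12.6 CPM with miR-497-5p and 13.4, 13.8 and 12.7 CPM with control at 72 h (-0.12 ± 0.10, adjusted p 0.331). At 12 h it had 9.80, 7.64 and 8.70 CPM with miR-497-5p and 10.5, 11.1 and 9.85 CPM with control. All 3 libraries with miR-497-5p lay below all 3 controls at 12 h, yet LATS1 missed the threshold (-0.27 ± 0.10, adjusted p 0.0605). Over 15 alternatives its adjusted p ran from 0.0136 to 0.603, and 2 of them passed.

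LATS2, the second LATS kinase, was barely sampled in RNA-seq. It had 2, 0 and 0 reads with miR-497-5p and 1 read in each control library at 72 h, too few for a fold change. At 12 h it had 11, 17 and 17 reads with miR-497-5p and 20, 20 and 12 reads with control, a ratio of summed counts of 0.964 (95% interval 0.632 to 1.46, exact, counting error only). The arms at 12 h overlapped (-0.07 ± 0.46, adjusted p 0.955).

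YAP1, the main co-activator, had 139, 152 and 148 CPM with miR-497-5p at 72 h, against 135, 134 and 126 CPM with control. The arms did not overlap, the means were 146 ± 6.76 and 132 ± 5.20 CPM (SD, n = 3), and YAP1 rose by 0.15 ± 0.04 (adjusted p 0.00115). Scaled by library totals the value was 0.04 (adjusted p 0.366). At 12 h YAP1 averaged 144 ± 2.59 CPM with miR-497-5p and 144 ± 3.63 CPM with control (0.00 ± 0.04, adjusted p 0.963).

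WWTR1 encodes TAZ, the other co-activator. At 72 h it had 23.4, 19.4 and 20.8 CPM with miR-497-5p and 6.81, 7.61 and 8.07 CPM with control. The arms stood far apart, and WWTR1 rose by 1.50 ± 0.10 (adjusted p 3.26e-18). At 12 h the arms overlapped, at 13.1, 16.0 and 16.1 CPM with miR-497-5p and 13.9, 16.3 and 15.0 CPM with control (0.00 ± 0.09, adjusted p 0.991). WWTR1 has no seed match in its 3′ UTR. The antisense gene WWTR1-AS1 covers 9.45% of its exonic bases.

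TEAD1, the DNA-binding partner of the co-activators, had 140, 141 and 142 CPM with miR-497-5p and 115, 114 and 108 CPM with control at 72 h. The arms were far apart relative to their spread, and TEAD1 rose by 0.33 ± 0.04 (adjusted p 7.28e-10). At 12 h it had 172, 186 and 185 CPM with miR-497-5p, against 187, 201 and 199 CPM with control, and fell by 0.11 ± 0.04 on the log2 scale (adjusted p 0.0420). So TEAD1, the gene with the 8mer match, was lower with miR-497-5p at 12 h and higher at 72 h. The call at 12 h ended without control replicate 2 (adjusted p 0.216), without control replicate 3 (adjusted p 0.151) or without miR-497-5p replicate 1 (adjusted p 0.181). It also ended with an offset for transcript length (-0.04, adjusted p 0.533), without the filter on low counts (adjusted p 0.0542) and on only the 6 libraries of 12 h (adjusted p 0.0683). Without the 12 h libraries past the marker limits, which leaves a single library in each arm, the value was -0.10.

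ANKRD1, an ankyrin repeat protein whose gene is induced by YAP1 and TAZ, gave the largest change of the 10 at both times. It had 22.2, 24.7 and 22.2 CPM with miR-497-5p and 7.50, 7.76 and 7.20 CPM with control at 72 h (1.62 ± 0.09, adjusted p 3.85e-20). At 12 h it had 16.6, 15.8 and 15.4 CPM with miR-497-5p and 9.68, 9.39 and 11.7 CPM with control (0.63 ± 0.09, adjusted p 4.86e-07). Both times the arms stood clear of each other. Without the 12 h libraries past the marker limits the change at 12 h was 0.40, from a single library in each arm.

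CCN2 encodes the secreted matrix protein CTGF, the most used readout of YAP1 and TAZ activity. It had 10.8, 11.1 and 12.6 CPM with miR-497-5p and 7.42, 6.88 and 6.41 CPM with control at 72 h (0.73 ± 0.10, adjusted p 8.00e-09). At 12 h it had 17.3, 18.4 and 18.1 CPM with miR-497-5p and 15.8, 14.8 and 15.0 CPM with control (0.24 ± 0.08, adjusted p 0.0426). The arms were separate at both times. The call at 12 h ended without control replicate 2 or 3 or miR-497-5p replicate 2 or 3 (adjusted p 0.114 to 0.132). It also ended with library totals (adjusted p 0.118), without the filter on low counts (adjusted p 0.106), with a length offset (0.16, adjusted p 0.269) and on only the 6 libraries of 12 h (adjusted p 0.0678). Without the 12 h libraries past the marker limits the value was 0.27, from a single library in each arm.

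CCN1 and AMOTL2 moved little. CCN1 had 319, 324 and 318 CPM with miR-497-5p and 295, 291 and 305 CPM with control at 72 h, and it rose by 0.11 ± 0.03 (adjusted p 0.00399). Its arms did not overlap, but scaled by library totals the value was 0.00 (adjusted p 0.985), without the filter on low counts it was 0.0790 and no longer called, and with a length offset it was 0.27. AMOTL2, an angiomotin-like scaffold that binds YAP1 and is itself an output gene, had 60.1, 58.4 and 57.4 CPM with miR-497-5p and 70.0, 64.4 and 65.7 CPM with control at 72 h. It fell by 0.19 ± 0.05 on the log2 scale (adjusted p 0.000728), in the direction opposite to the other 3 output genes, and was at -0.29 with library totals. At 12 h CCN1 had 0.07 ± 0.03 (adjusted p 0.153) and AMOTL2 -0.04 ± 0.04 (adjusted p 0.651).

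**Figure D2:**
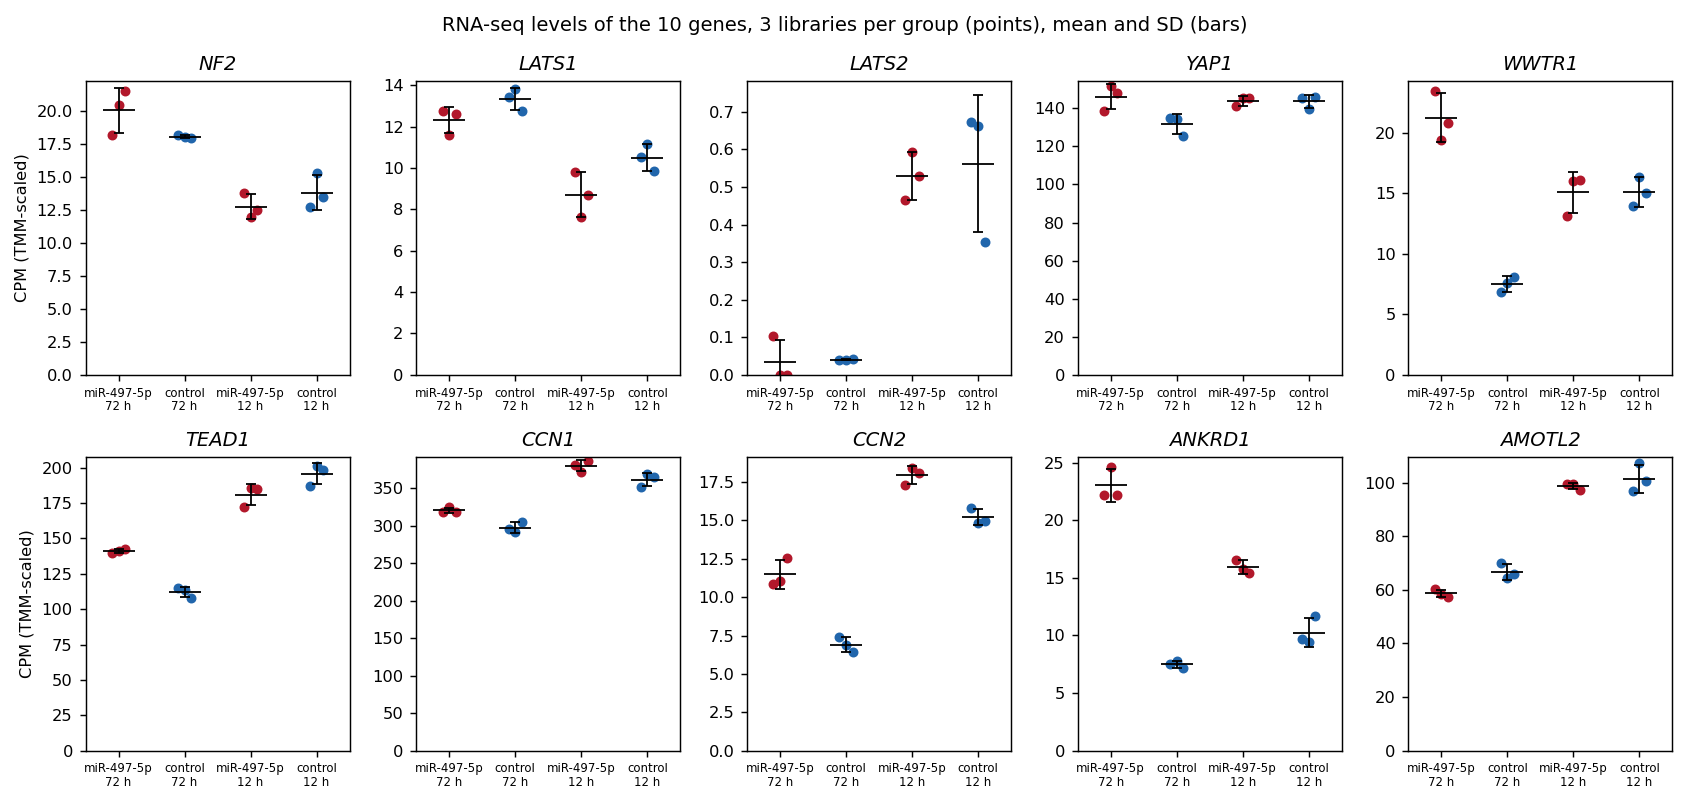
RNA-seq level (CPM, y axis, scaled by TMM) of each gene in each library (points), with the mean and SD of the 3 libraries of each group (bars), for miR-497-5p (red) and control (blue) at 72 h and 12 h. ANKRD1 and WWTR1 at 72 h stand at 19.4 to 24.7 CPM with miR-497-5p and at 8.07 CPM or below with control, while YAP1 and CCN1 differ by little.

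Without miR-497-5p the RNA levels of these genes also differed between the times. In the control libraries all 10 genes differed between 72 h and 12 h, where 74.4% of all genes did, 2 higher and 8 lower at 72 h (36.1% higher and 38.4% lower among all genes). The arms of all 10 did not overlap, against 77.5% of all genes, and the median was -0.53 against 0.00 over all genes. This contrast and the contrasts with miR-497-5p use the same control libraries, so they are given side by side and not counted as separate evidence. The co-activator WWTR1 fell to 7.50 ± 0.637 CPM at 72 h, against 15.1 ± 1.21 CPM at 12 h (-1.01 ± 0.10, adjusted p 5.51e-13). CCN2 fell to 6.90 ± 0.505 CPM at 72 h, against 15.2 ± 0.521 CPM at 12 h (-1.14 ± 0.09, adjusted p 2.57e-15). With miR-497-5p the same genes were at 21.2 ± 2.03 CPM (WWTR1) and 11.5 ± 0.932 CPM (CCN2) at 72 h. TEAD1 fell by 0.80 ± 0.04 and AMOTL2 by 0.61 ± 0.04 on the log2 scale (adjusted p 4.35e-23 and 2.05e-16). ANKRD1 fell by 0.45 ± 0.09, CCN1 by 0.28 ± 0.03 and YAP1 by 0.13 ± 0.04 (adjusted p 3.66e-05, 1.27e-10 and 0.00437). The YAP1 call ended without control replicate 3 of 72 h (adjusted p 0.0513) and with a length offset (0.0277, adjusted p 0.520).

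Among the upstream components the controls went 2 ways. NF2 rose to 18.1 ± 0.122 CPM at 72 h, against 13.8 ± 1.31 CPM at 12 h (0.39 ± 0.08, adjusted p 4.30e-05), and LATS1 to 13.3 ± 0.554 CPM, against 10.5 ± 0.648 CPM (0.35 ± 0.10, adjusted p 0.00133). LATS2 summed to 3 reads at 72 h and 52 reads at 12 h over the control libraries, a ratio of 0.0725 (95% interval 0.0145 to 0.224, exact, counting error only). The squamous marker sum of the control libraries was also lower, at 169 to 180 CPM at 72 h and 350 to 940 CPM at 12 h. The part of that RNA in the LATS2 result, and in the other changes of this contrast, was not tested. Scaled by library totals, which moved the median of all genes by -0.25, the rises of NF2 and LATS1 were no longer called (0.14 and 0.10, adjusted p 0.125 and 0.361), and ANKRD1, CCN1 and YAP1 were at -0.70, -0.53 and -0.37.

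The effect of miR-497-5p at 72 h minus its effect at 12 h was tested directly. It was called for 5 of the 10 genes, all 5 more positive at 72 h, where 48.8% of all genes were called (22.5% more positive, 26.2% more negative). WWTR1 gave 1.50 ± 0.13 (adjusted p 1.49e-13), ANKRD1 0.99 ± 0.13 (adjusted p 5.70e-09) and CCN2 0.49 ± 0.13 (adjusted p 0.00106). TEAD1, lower at 12 h and higher at 72 h, gave 0.44 ± 0.06 (adjusted p 2.62e-09), and 0.28 with a length offset. YAP1 gave 0.15 ± 0.06 (adjusted p 0.0274), a call that ended without any 1 of 4 libraries and when scaled by library totals (0.0887). It also ended without the filter on low counts (0.12, adjusted p 0.142). Without the 12 h libraries past the marker limits, where each 12 h arm is a single library, the YAP1 value was 0.15. NF2 (0.27 ± 0.12, adjusted p 0.0507) and AMOTL2 (-0.15 ± 0.06, adjusted p 0.0568) were just outside the threshold. CCN1 was not called (0.04 ± 0.05, adjusted p 0.542), but with a length offset it was at 0.27 and called (adjusted p 7.13e-07).

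**Figure D3:**
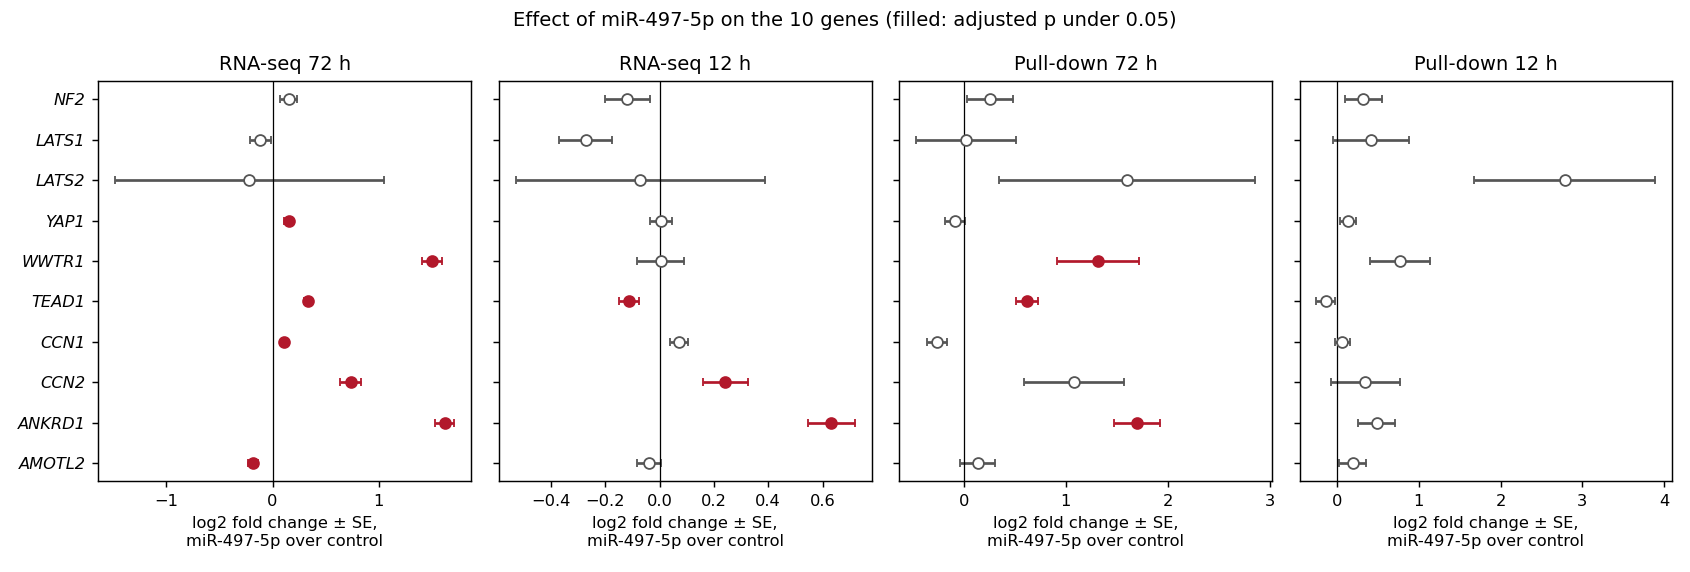
Log2 fold change of each gene, miR-497-5p over control (x axis, a different range in each panel), with its standard error, for RNA-seq and pull-down at 72 h and 12 h. Filled points were called (adjusted p under 0.05): 7 and 3 genes in RNA-seq at 72 h and 12 h, 3 and none in the pull-down.

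In the pull-down ANKRD1, TEAD1 and WWTR1 were higher with miR-497-5p at 72 h, the genes that also rose in RNA-seq at 72 h. No gene of the 10 was called in the pull-down at 12 h, where LATS2 had by far the largest difference. At 72 h 3 of the 10 genes were called, all higher, where 22.7% of all 17477 genes were called (10.2% higher, 12.6% lower). The arms of 4 did not overlap, against 35.5% of all genes.

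ANKRD1 had 33.7, 37.3 and 42.6 CPM in the pull-down with miR-497-5p at 72 h, against 10.5, 11.0 and 13.5 CPM with control (1.70 ± 0.22, adjusted p 2.58e-06). TEAD1 had 119, 122 and 129 CPM with miR-497-5p and 87.1, 72.9 and 80.9 CPM with control (0.62 ± 0.11, adjusted p 0.000155). In both genes every library with miR-497-5p was above every control. WWTR1 had 7.82, 2.97 and 3.05 CPM with miR-497-5p and 2.35, 2.33 and 0.979 CPM with control (1.31 ± 0.40, adjusted p 0.0175). The WWTR1 arms were close, and the call ended without miR-497-5p replicate 1 (0.67, adjusted p 0.287) or control replicate 3 (1.00, adjusted p 0.0984), and on only the 6 libraries of 72 h (1.31, adjusted p 0.0693).

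The other 7 genes were not called at 72 h. CCN1 had 87.1, 79.8 and 72.5 CPM with miR-497-5p and 89.0, 104 and 94.0 CPM with control (-0.26 ± 0.10, adjusted p 0.0580). YAP1 had 467, 428 and 433 CPM with miR-497-5p and 449, 498 and 461 CPM with control (-0.08 ± 0.10, adjusted p 0.633). CCN2 had 25, 6 and 47 reads with miR-497-5p and 19, 28 and 6 reads with control (1.08 ± 0.49, adjusted p 0.121). The arms overlapped for YAP1 and CCN2 and not for CCN1. LATS2 had 0, 0 and 14 reads with miR-497-5p and 0, 2 and 4 reads with control, so a single library carried most of its reads. NF2, LATS1 and AMOTL2 had overlapping arms, with changes between 0.02 and 0.26.

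At 12 h the pull-down of LATS2 held 84, 99 and 96 reads with miR-497-5p, against 5, 15 and 14 reads with control. That is 3.78 ± 0.714 CPM with miR-497-5p and 0.543 ± 0.268 CPM with control (SD, n = 3), and a ratio of summed counts of 6.78 (95% interval 4.74 to 9.98, exact, counting error only). The arms were far apart. In the fit over the 12 pull-down libraries, whose spread is shared across both times, the change was 2.79 ± 1.11 with adjusted p 0.365 (unadjusted 0.0191). Fitted on the 6 libraries of 12 h alone it was 2.81 with adjusted p 0.0316. Over all 15 alternatives the value ran from 2.43 to 3.17 and the adjusted p from 0.0316 to 0.722. By library, LATS2 stood at 4.60, 3.41 and 3.33 CPM with miR-497-5p, beside squamous sums of 1118, 831 and 240 CPM. With control it stood at 0.235, 0.726 and 0.668 CPM, beside squamous sums of 166, 301 and 891 CPM. The part of that RNA in the LATS2 result was not tested. The 7mer-m8 match of LATS2 is shown above.

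No gene of the 10 was called in the pull-down at 12 h by edgeR or by DESeq2, where edgeR called 0.595% of all genes (0.326% higher, 0.269% lower). At an unadjusted p under 0.05 there were 3, LATS2, ANKRD1 and WWTR1. The share of all genes under that looser rule was not determined, so this count cannot be judged against it. WWTR1 had 13.9, 14.6 and 20.8 CPM with miR-497-5p and 7.67, 12.1 and 9.12 CPM with control (0.77 ± 0.36, adjusted p 0.483). ANKRD1 had 6.52, 9.56 and 9.75 CPM with miR-497-5p and 5.51, 7.45 and 5.58 CPM with control (0.48 ± 0.23, adjusted p 0.476). The arms did not overlap for LATS2, WWTR1 and NF2, and this separation was found in 16.4% of all genes. TEAD1, with 3 7mer-m8 or 8mer matches, had 79.6, 67.0 and 75.4 CPM with miR-497-5p and 75.9, 86.3 and 82.7 CPM with control (-0.14 ± 0.11, adjusted p 0.783).

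The effect in the pull-down at 72 h minus that at 12 h was called for 2 of the 10 genes, both more positive, where 12.2% of all genes were called (5.94% more positive, 6.27% more negative). TEAD1 gave 0.76 ± 0.16 (adjusted p 0.00160) and ANKRD1 1.21 ± 0.31 (adjusted p 0.0109). The ANKRD1 value was 1.09 without the 12 h libraries past the marker limits, which leaves a single treated library in the 12 h pull-down.

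**Figure D4:**
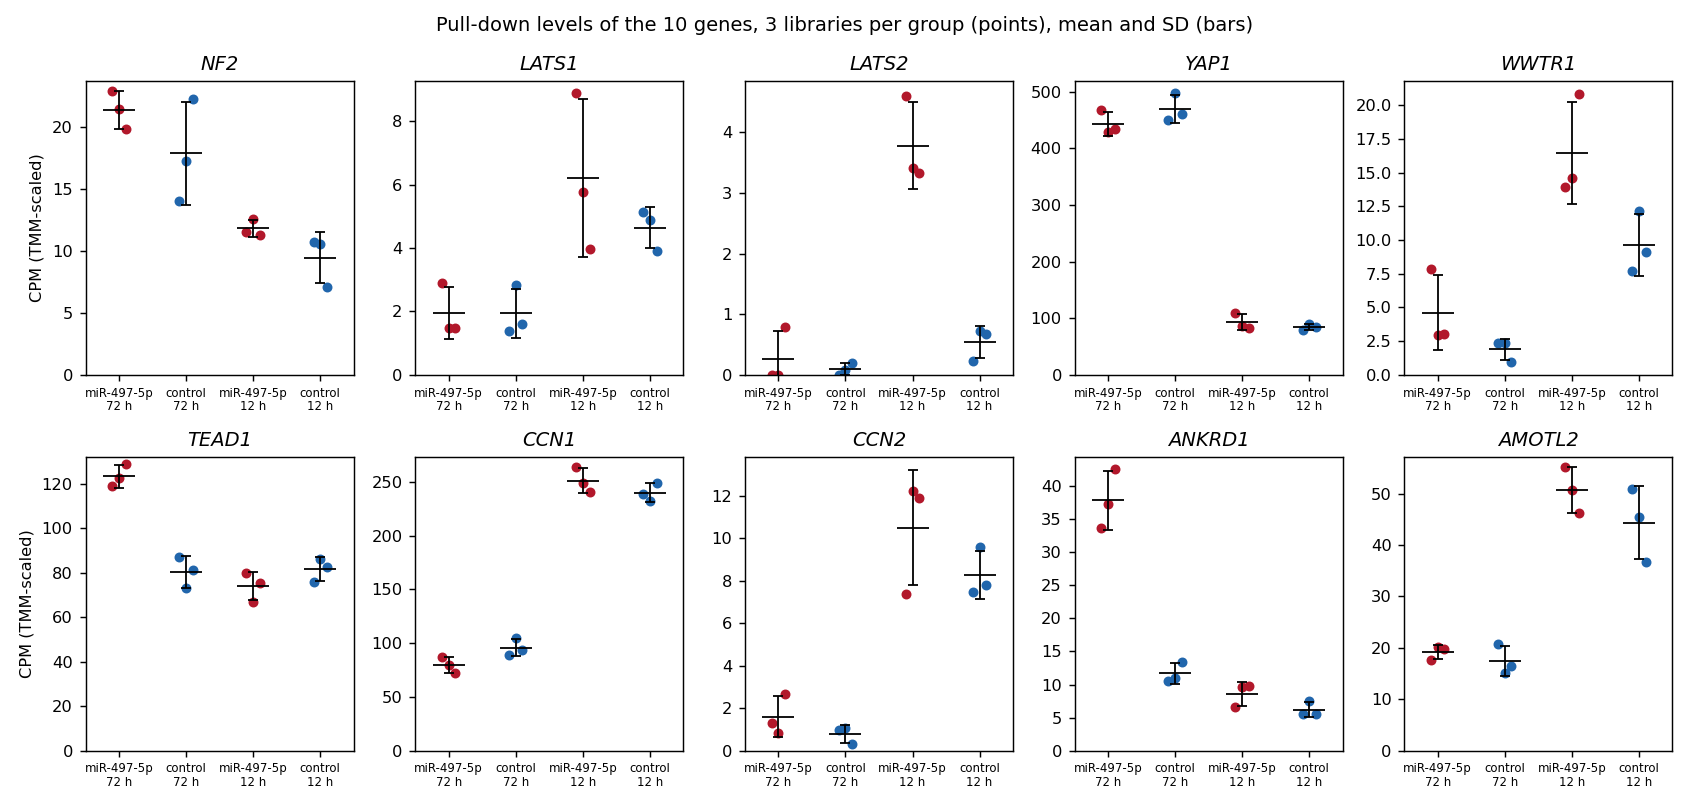
Pull-down level (CPM, y axis, scaled by TMM) of each gene in each library (points), with the mean and SD of the 3 libraries of each group (bars), for miR-497-5p (red) and control (blue) at 72 h and 12 h. LATS2 at 12 h stands at 3.33 to 4.60 CPM with miR-497-5p and at 0.726 CPM or below with control, and ANKRD1 and TEAD1 are higher with miR-497-5p at 72 h.

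Subtracting the RNA-seq effect from the pull-down effect asks whether a transcript was retained beyond the change of its total amount. At 72 h ANKRD1, with the largest pull-down effect among the genes called, gave 0.06 ± 0.19 (adjusted p 0.900), and WWTR1 gave -0.19 ± 0.49 (adjusted p 0.867). TEAD1 gave 0.27 ± 0.09 (adjusted p 0.0552), which was just outside the threshold and inside it by DESeq2 (0.28, adjusted p 0.0322; 0.00447 to 0.142 over 19 alternatives). Of the 9 genes tested at 72 h 2 were called, both negative, where 14.5% of all 16896 genes were called (7.46% positive, 7.01% negative). LATS2 was not tested there. CCN1 gave -0.39 ± 0.09 (adjusted p 0.00772), since its pull-down effect was -0.26 and its RNA-seq effect 0.11. YAP1 gave -0.25 ± 0.07 (adjusted p 0.0280). Scaled by library totals, where the median of all genes was 0.136, both calls ended (-0.26 for CCN1 and -0.11 for YAP1, adjusted p 0.0732 and 0.332). The YAP1 call also ended without any 1 of 7 libraries.

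At 12 h 1 of the 10 genes was called beyond the input, where 1.34% of all 17078 genes were called (0.984% positive, 0.357% negative). This was LATS2, at 2.88 ± 0.67 (adjusted p 0.0453). The call was at the edge of the threshold. It ended when any 1 of 9 libraries was left out (2.51 to 3.14, adjusted p 0.0504 to 0.157) and with a length offset (2.83, adjusted p 0.0608), while DESeq2 gave 2.83 (adjusted p 0.00169). Without the 12 h libraries past the marker limits, where only the control pull-down keeps more than 1 library, LATS2 was at 2.22. The value stayed at 2.22 or more in each of these fits. In the same contrast the squamous markers TGM3 (7.46, adjusted p 0.0170) and MAL (4.60, adjusted p 0.0415) were also called positive. The other squamous markers were not called, and of them KRT10 (-0.49) and LORICRIN (-0.17) were negative. The part of squamous RNA in the LATS2 result was not tested. WWTR1 gave 0.80 ± 0.27 (adjusted p 0.164), LATS1 0.70 ± 0.33 (adjusted p 0.334) and NF2 0.47 ± 0.23 (adjusted p 0.349).

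Further genes of the pathway were taken from lists. A list of 22 YAP and TAZ output genes, which includes 5 of the 10 (AMOTL2, LATS2, CCN2, CCN1 and ANKRD1), had 13 members higher and 5 lower with miR-497-5p in RNA-seq at 72 h, with a median of 0.21 against 0.00 for all genes, of which 27.9% were higher and 29.6% lower. Beside ANKRD1, the members with the smallest adjusted p were F3, the receptor that starts blood clotting (1.35 ± 0.05, adjusted p 2.51e-28), and PTPN14, a phosphatase that binds YAP1 (1.23 ± 0.05, adjusted p 3.17e-25). CCDC80, a matrix protein, rose by 0.85 ± 0.04, RBMS3, an RNA-binding protein, by 1.22 ± 0.06, and NT5E, the ectonucleotidase CD73, by 1.20 ± 0.08 (adjusted p 6.75e-25, 3.35e-22 and 1.70e-18). NUAK2, FJX1, ARHGEF17, AXL and AMOTL2 fell. At 12 h the list was mixed, with 4 members higher and 5 lower and a median of -0.04 against 0.01 for all genes, of which 7.25% were higher and 5.30% lower. The growth-factor-binding transmembrane protein CRIM1 fell by 0.38 ± 0.04 (adjusted p 9.92e-11), CCDC80 by 0.17 ± 0.03 (adjusted p 0.000404) and the receptor kinase AXL by 0.12 ± 0.03 (adjusted p 0.00465). FOXF2, a forkhead transcription factor, rose by 0.26 ± 0.07 and IGFBP3, which binds insulin-like growth factors, by 0.11 ± 0.03 (adjusted p 0.00542 and 0.0162). In the control libraries 4 members were higher and 16 lower at 72 h than at 12 h (median -0.53 against 0.00 for all genes, of which 36.1% were higher and 38.4% lower), with IGFBP3 at the smallest adjusted p (-1.96 ± 0.03, adjusted p 7.19e-41). The pull-down at 72 h had 6 members higher and 1 lower (FJX1), and the median was 0.14 against 0.00 for all genes, of which 10.2% were higher and 12.6% lower. PTPN14 was at 1.09 ± 0.13 and the Arf regulator ASAP1 at 0.73 ± 0.10 (adjusted p 9.83e-07 and 8.50e-06). No member of this list was called in the pull-down at 12 h. At an unadjusted p under 0.05 (edgeR) there were 6, and the share of all genes under that rule was not determined.

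**Figure D5:**
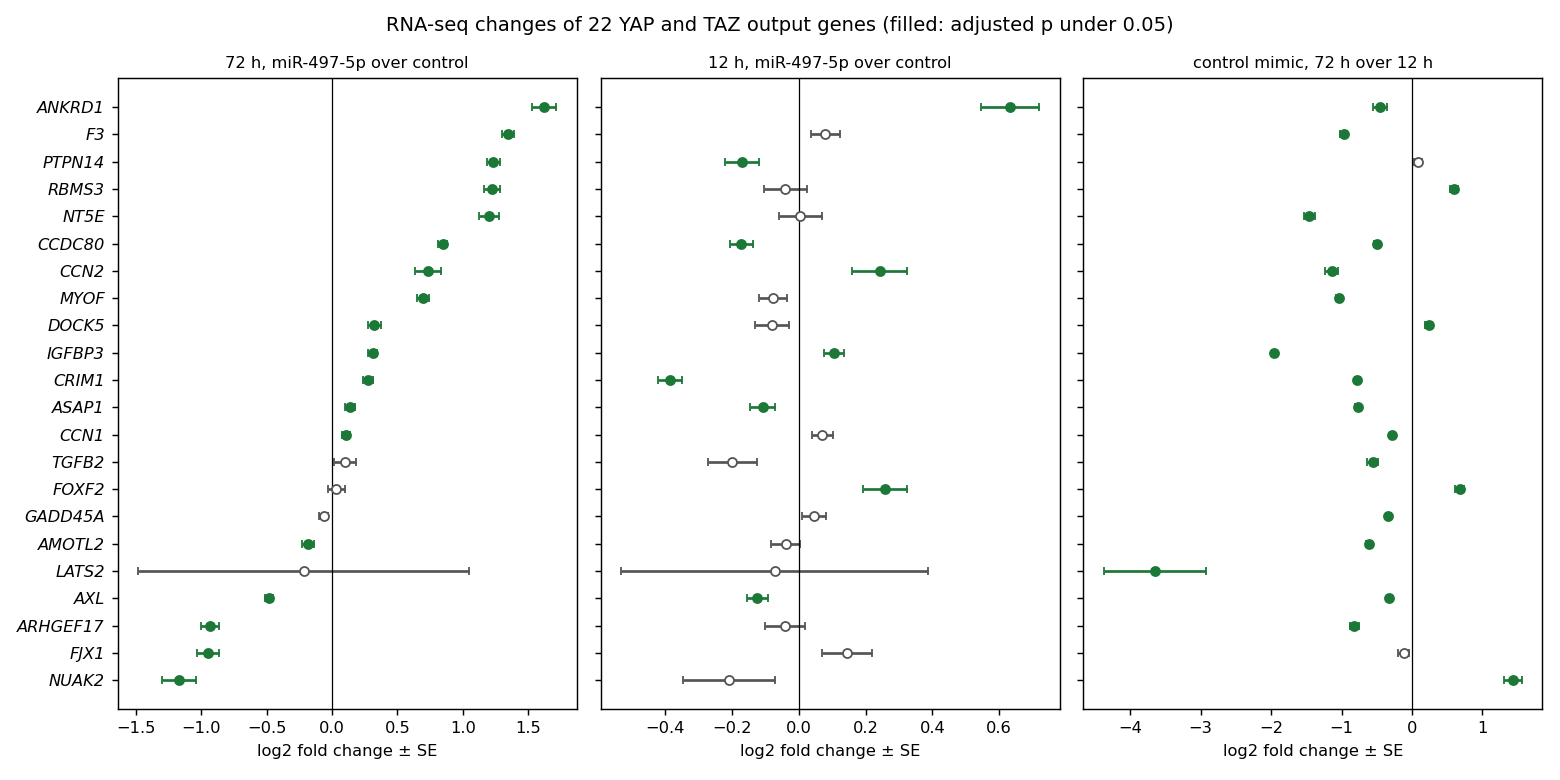
RNA-seq log2 fold change ± SE (x axis, a different range in each panel) of 22 YAP and TAZ output genes for miR-497-5p over control at 72 h and at 12 h and for control 72 h over 12 h, ordered by the first. Filled points were called: 13 higher and 5 lower at 72 h, 4 higher and 5 lower at 12 h, and 4 higher and 16 lower over time in the control libraries.

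Of the 8 co-activators, TEAD factors and VGLL cofactors tested in RNA-seq, 4 were higher and 1 lower with miR-497-5p at 72 h, where 57.5% of all genes were called. The higher genes were WWTR1, TEAD1, YAP1 and VGLL3, a TEAD cofactor, which rose by 0.64 ± 0.05 (adjusted p 1.23e-11). TEAD4 fell by 0.46 ± 0.05 (adjusted p 4.72e-12), so TEAD1 and TEAD4 moved in opposite directions. At 12 h TEAD1 was the only one of the 8 that was called, where 12.5% of all genes were. Of the 9 tested in the pull-down 4 were higher and none lower at 72 h, where 22.7% of all genes were called: TEAD1, WWTR1, TEAD2 (0.74 ± 0.16, adjusted p 0.00102) and VGLL3 (0.56 ± 0.16, adjusted p 0.0114). In RNA-seq the change of TEAD2 at 72 h was 0.09 ± 0.06 (adjusted p 0.212).

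Of 36 upstream components, among them NF2, LATS1, LATS2 and AMOTL2, 34 were tested in RNA-seq. With miR-497-5p 13 were higher and 13 lower at 72 h, and the median was 0.00, as for all genes, of which 27.9% were higher and 29.6% lower. The polarity scaffolds SCRIB and LLGL1 fell by 1.40 ± 0.05 and 1.27 ± 0.04 on the log2 scale (adjusted p 4.96e-26 and 1.32e-25), as did AJUBA, a LIM protein that inhibits LATS kinases, by 0.82 ± 0.05 (adjusted p 2.95e-18). PTPN14, which is on both lists, rose. At 12 h none was higher and 9 were lower, with a median of -0.12 against 0.01 for all genes, of which 7.25% were higher and 5.30% lower. The lowest adjusted p there was that of the kinase TAOK1 (-0.21 ± 0.05, adjusted p 0.00517), followed by the NF2 partner WWC1 (-0.16 ± 0.04, adjusted p 0.00542), the scaffold SAV1 (-0.17 ± 0.05, adjusted p 0.00922) and the LATS cofactor MOB1B (-0.24 ± 0.07, adjusted p 0.0167). At 72 h SAV1, MOB1B and TAOK1 were higher (0.40 ± 0.04, 0.62 ± 0.07 and 0.41 ± 0.05, adjusted p 4.02e-11, 9.26e-11 and 4.30e-09) and WWC1 lower (-0.58 ± 0.04, adjusted p 1.04e-16). Of the 34 tested in the pull-down 5 were higher and 6 lower at 72 h, where 22.7% of all genes were called. At 12 h the LIM protein WTIP alone was called, where 0.595% of all genes were (-0.64 ± 0.12, adjusted p 0.00990). Over the 36 genes 41.7% have a 7mer-m8 or 8mer match in the 3′ UTR, against 22.9% of all protein-coding genes. Their median UTR is 3195.5 bases long, against 1228 bases for all. Of UTRs within 20% of the 3484 bases of YAP1, 39.9% hold such a match, which is close to the share of the list.

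The genes whose RNA-seq level most resembled that of an output gene were taken by Pearson's r of log2 CPM over the 12 libraries, among the 10720 genes that averaged 5 CPM or more. For ANKRD1 they were EIF1 (0.992), MRPS30 (0.971) and BOD1 (0.969). For CCN2 they were MRPL45 (0.991), LDHA (0.988) and CBX3 (0.988), and for CCN1 TCF25 (0.986), FH (0.985) and CIRBP (0.983). The 12 libraries form 4 groups of 3, so such values mostly describe the pattern over the groups. None of these 9 genes is on the lists above.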

How the data were processed

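RNA-seq (input) and pull-down libraries of H2052 cells were compared, 3 in each of 8 groups taken from the labels. Per the submitters' processing notes, reads were handled with Trimmomatic 0.36, STAR 2.5.2b and featureCounts of Subread 1.5.2 on GRCh38. The deposited tables hold raw counts per gene and the summed exon length, with no other normalization. Of 57500 identifiers 98.1% had a symbol. Counts were fitted with edgeR 4.0.16 (R 4.3.3) by the robust quasi-likelihood test with TMM scaling and its default filter, over the 12 libraries of an assay, and over the 12 libraries of a time for the effect in the pull-down less that in RNA-seq. Adjustment was by Benjamini-Hochberg across every gene in a fit. CPM of the 10 genes are scaled by TMM, those of the cell type markers by library totals alone, and RPKM divide by the deposited exon length. Intervals cover counting error only. The SE of a fold change was derived from the test, as the size of the change over the square root of its F statistic. The fits were tested on simulated counts. DESeq2 1.42.0 and other settings were tried. Members and lists were chosen with earlier results of these data known. Genes outside the 10 were mostly named by smallest adjusted p, up to 5 per comparison from the co-activator and output lists and 4 from the upstream list. The output genes that fell in RNA-seq at 72 h were also named, and some genes named in 1 comparison were followed in another. For CCN1, CCN2 and ANKRD1 the 3 genes most alike in level were named. The sequence of 1 further match is not reported here.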

Additional observations from a re-analysis of the deposited data

Results flagged for a closer look

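In the RNA-seq the effect of miR-497-5p differed between the times, by a test of the difference itself, for 5 of the 10 genes, where it did for 48.8% of all genes. The effect at 72 h minus that at 12 h was 1.50 for WWTR1, 0.99 for ANKRD1, 0.49 for CCN2, 0.44 for TEAD1 and 0.15 for YAP1 (log2). In the pull-down it differed for 2 of the 10 genes, where it did for 12.2% of all genes, by 1.21 for ANKRD1 and 0.76 for TEAD1.

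The effect differed between the assays for 1 of 10 genes at 12 h and 2 of 9 at 72 h, where it did for 1.34% and 14.5% of all genes. Subtracting the RNA-seq effect from the pull-down effect gave 2.88 for LATS2 at 12 h, -0.39 for CCN1 at 72 h and -0.25 for YAP1 at 72 h. Values of single libraries were not examined as outliers, since each group holds 3.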

How the results depend on the processing

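In RNA-seq at 12 h the number of the 10 genes called was 3. It became 1 without the filter on low counts, with a length offset, with the replicate block and the length offset, and on only the 6 libraries compared. It ran from 1 to 3 when a library was left out. The fits without the 12 h libraries past the marker limits were chosen after seeing the data. In them an arm of 1 library is assumed to vary like the other groups, so their own counts are not given. The ranges over all genes below, and those over all alternatives at 12 h above, do include these fits. Leaving out a library gave 7 to 8 in RNA-seq at 72 h, 4 to 7 for the RNA-seq difference between times, 9 to 10 for the control contrast, 0 to 0 and 2 to 4 in the pull-down at 12 h and 72 h, 2 to 2 for the pull-down difference, and 0 to 1 and 1 to 4 beyond the input at 12 h and 72 h. In the pull-down at 12 h the 0 became 1 on only the 6 libraries compared. Beyond the input at 12 h the 1 became 0 with the replicate block, the length offset or both, and at 72 h the 2 became 1 with library totals. Scaling by library totals changed the split of higher and lower genes to 1 and 2 (main 2 and 1) in RNA-seq at 12 h, 4 and 2 (main 6 and 1) at 72 h, 4 and 1 (main 5 and 0) for the difference, 0 and 8 (main 2 and 8) for the control contrast, 2 and 1 (main 2 and 0) for the pull-down difference, and 1 and 0 (main 0 and 2) beyond the input at 72 h. Over all genes the count ran from 1327 to 2468 (main 2175) in RNA-seq at 12 h, 64 to 616 (main 104) in the pull-down at 12 h and 42 to 974 (main 229) beyond the input at 12 h.

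Signs turned for genes that were not called and for YAP1 in the control contrast. Without the 12 h libraries past the marker limits LATS2 was 0.58 in RNA-seq at 12 h, LATS1 -0.32 and AMOTL2 -0.0370 in the pull-down at 12 h, LATS1 0.34 for the pull-down difference, and LATS1 -0.14 and ANKRD1 0.20 beyond the input at 12 h. With library totals YAP1 was -0.0444 in RNA-seq at 12 h, CCN1 -0.0204 for the RNA-seq difference and TEAD1 0.11 beyond the input at 12 h. With a length offset, with and without the block, CCN1 was -0.0072 in RNA-seq at 12 h and YAP1, a called gene, 0.0277 and 0.0275 in the control contrast. Leaving out a library gave -4.02 to 2.61 for LATS2 in the pull-down at 72 h, -0.10 to 0.79 for WWTR1 in its difference between times, and -0.32 to 0.52 for LATS1 and -0.22 to 0.69 for CCN2 beyond the input at 72 h. The cause was not tested.

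Replicate numbers are shared between the groups, but no pair of groups had all 3 correlations over 0.1, and libraries correlated best with their own number in 14 of 36 checks in RNA-seq and 13 of 36 in the pull-down. With the replicate block LATS2 beyond the input at 12 h was 2.90 (adjusted p 0.0814). Depth limits LATS2 most, with 0 to 2 reads in RNA-seq at 72 h, and in the pull-down CCN2 and LATS1 at 72 h.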

Other observations

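The level of YAP1 in the pull-down differed between the times in both arms. It averaged 443 ± 21.0 CPM at 72 h and 92.6 ± 14.0 CPM at 12 h with miR-497-5p, and 469 ± 25.3 CPM at 72 h and 84.4 ± 5.48 CPM at 12 h with control (SD, n = 3). In RNA-seq the same gene averaged 146 ± 6.76 CPM at 72 h and 144 ± 2.59 CPM at 12 h with miR-497-5p, and 132 ± 5.20 CPM at 72 h and 144 ± 3.63 CPM at 12 h with control. CCN2 in the control pull-down went the other way, at 0.776 ± 0.424 CPM at 72 h and 8.28 ± 1.13 CPM at 12 h. These values were chosen after they were seen, and the difference between times in the pull-down was not tested.

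The genes beside LATS2 on chromosome 13 were sampled where LATS2 was not. In the RNA-seq at 72 h LATS2 had 0 to 2 reads with miR-497-5p and 1 read with control, while XPO4, the nearest listed gene on 1 side, had 155 to 191 and 220 to 236 reads and SAP18, the nearest on the other, had 1906 to 2058 and 2658 to 2829 reads. In the pull-down at 12 h XPO4 had 101 to 195 reads with miR-497-5p and 102 to 133 reads with control. Farther away, IFT88 had 40 to 63 reads with miR-497-5p and 17 to 18 reads with control, and IL17D had 60 to 117 and 37 to 46 reads. The ranges of the other listed neighbours overlapped or met. These reads are not scaled for depth.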
